A study of Mus musculus with 9 samples.

Results

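Matrix metalloproteinases (MMPs) and tissue inhibitors of metalloproteinases (TIMPs) were followed in the cardiac transcriptome of transgenic mice. The genes were chosen by their names, with earlier results of these data known, as 6 MMP genes (Mmp2, Mmp3, Mmp9, Mmp14, Mmp15 and Mmp23) and 4 TIMP genes (Timp1, Timp2, Timp3 and Timp4), which are 10 of the 41710 gene names in the deposited tables. Hearts came from males of the FVB/N strain aged 8 months, with 3 mice and 1 library per mouse in each of 3 groups. The groups were mice with an RKIP transgene (Tg-RKIP), mice labelled as GRK2-transgenic (Tg-GRK2), and non-transgenic FVB/N controls (FVB). RKIP, the product of Pebp1, is an inhibitor of protein kinases that include GRK2. The RKIP transgene was expressed in the myocardium from the alpha-MHC promoter, whereas the promoter of the GRK2 transgene is not given in the sources used here. RNA was taken from whole pulverized hearts, and in such bulk samples fewer cells of a type and less RNA per cell cannot be told apart.

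MMPs are zinc-dependent endopeptidases that are made as inactive zymogens and cut collagens, gelatin, laminins, fibronectin, elastin and proteoglycans of the extracellular matrix. TIMPs bind the active site of MMPs and block them, and some TIMPs also take part in zymogen activation or block related ADAM and ADAMTS proteases. In the heart, the balance of proteases and inhibitors is known for its role in collagen turnover, in the dilation of the ventricle and in fibrosis. Fibroblasts, macrophages, neutrophils and cardiomyocytes are all known sources of these proteins.

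The stretches of DNA just upstream of the annotated starts are shown for the genes with the clearest contrasts below, namely Mmp3 and Timp1, which rose most in Tg-RKIP hearts, Mmp15, which fell there, and Timp4, which was lowest in Tg-GRK2-labelled libraries. The sequences were taken from RefSeq for build GRCm38.p6, which is not the build of the deposited coordinates. Each runs 5′ to 3′ on the strand of the gene and ends 1 base before the annotated start, from which distances below are counted. Where transcription starts in these hearts was not measured. Capitals mark matches to the AP-1 motif (letters TGANTCA), to the TATA box motif (letters TATAAA) or to the GC box motif (letters GGGCGG), each searched on both strands without overlap between the motifs. The window of Mmp3 is chr9:7445572-7445821 (plus strand), that of Timp1 is chrX:20869916-20870165 (plus strand), that of Mmp15 is chr8:95352046-95352295 (plus strand), and that of Timp4 is chr6:115252206-115252455 (minus strand).
Mmp3: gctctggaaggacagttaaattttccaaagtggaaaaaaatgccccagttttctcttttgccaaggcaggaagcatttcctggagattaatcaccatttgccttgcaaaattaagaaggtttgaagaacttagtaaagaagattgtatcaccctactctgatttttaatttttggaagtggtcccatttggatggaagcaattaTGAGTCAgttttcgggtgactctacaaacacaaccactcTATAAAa
Timp1: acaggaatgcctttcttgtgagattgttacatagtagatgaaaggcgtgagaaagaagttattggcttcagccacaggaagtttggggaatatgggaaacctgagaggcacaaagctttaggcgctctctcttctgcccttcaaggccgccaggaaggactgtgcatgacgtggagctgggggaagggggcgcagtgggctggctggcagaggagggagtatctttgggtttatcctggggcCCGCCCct
Mmp15: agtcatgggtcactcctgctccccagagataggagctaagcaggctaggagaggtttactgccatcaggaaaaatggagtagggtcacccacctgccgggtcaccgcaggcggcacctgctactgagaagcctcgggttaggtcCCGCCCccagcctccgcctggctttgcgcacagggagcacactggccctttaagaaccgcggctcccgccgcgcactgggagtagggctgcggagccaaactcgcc
Timp4: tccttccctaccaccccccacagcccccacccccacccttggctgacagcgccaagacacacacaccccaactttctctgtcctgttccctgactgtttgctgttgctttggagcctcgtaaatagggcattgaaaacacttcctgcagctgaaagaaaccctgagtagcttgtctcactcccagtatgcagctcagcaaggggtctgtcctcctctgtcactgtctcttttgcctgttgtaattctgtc

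Of the 10 genes, 8 had such a window in the RefSeq table, and Mmp23 had 2, which gave 9 windows. Mmp2 and Mmp9 had no entry. The AP-1 motif was found in 1 of the 9 windows, that of Mmp3, from 46 to 40 bases before the start, and the TATA motif was found in the same window from 7 to 2 bases before the start. Among 32851 RefSeq windows of the same length, 6.75% held the AP-1 motif and 12.4% held the TATA motif. The GC box was found in 5 of the 9 windows and in 32.7% of all windows. It lay from 106 to 101 bases before the start in Mmp15, from 37 to 32 in Timp2, from 15 to 10 in Timp3 and from 8 to 3 in Timp1, and it occurred 2 times in Mmp14. The windows of Timp4 and Mmp23 held none of the 3 motifs. The GC content was 37.6% in the Mmp3 window, 53.6% in that of Timp4, 54.4% in that of Timp1 and 63.6% in that of Mmp15. These matches describe the letters only, and no binding was measured.

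The 9 libraries held 25458108 to 33447654 reads on transcripts. Pebp1 had 15967 to 16371 TPM (reads per base of transcript, rescaled so that every library has an equal sum) in the Tg-RKIP libraries and 321 to 330 TPM in FVB. Grk2 had 24.9 to 30.5 TPM in Tg-GRK2-labelled libraries and 25.9 to 27.9 TPM in FVB, and its counts did not differ past the threshold (log2 fold change 0.05, edgeR adjusted p = 0.354), so these libraries are named by their label throughout. The summed level of 6 cardiomyocyte markers was 33630 to 36496 TPM in all libraries. Mitochondrially encoded genes took 11.5% to 11.8% of the reads in Tg-RKIP and 22.4% to 23.2% in the other libraries. Scaling therefore matters in comparisons with Tg-RKIP. Against FVB, the median log2 fold change of the 15504 tested genes was 0.0085 with TMM normalization (trimmed mean of M-values). It was 0.38 with scaling to library size only. On log2(TPM + 0.1) it was 0.43, over 13478 genes that passed another filter. Fold changes below are those of TMM-normalized counts, with a threshold of 0.05 on the adjusted p, and levels are in TPM.

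All 10 genes passed the filter on low counts and were tested. Against FVB, 8 of the 10 rose in Tg-RKIP hearts and 2, Mmp15 and Timp4, fell. The median log2 fold change was 1.26 for the 6 MMP genes and 0.67 for the 4 TIMP genes. Of all tested genes, 36.8% were called higher and 37.1% lower in this comparison, so that 8 of 10 in 1 direction is to be read against a wide change of the transcriptome. A log2 change of 1 or more was called for 7 of the 10 genes, compared with 16.4% of all tested genes. The groups did not overlap in the TMM-normalized level of any of the 10 genes, which was also the case for 75.7% of all tested genes. With scaling to library size only, Timp4 was no longer called, which left 8 genes higher and 1 lower, and over all tested genes this scaling turned 5709 higher and 5751 lower calls into 9709 and 2650.

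In Tg-GRK2-labelled libraries, which were compared with the same 3 FVB libraries, 3 of the 10 genes were called higher and 3 lower. Mmp2, Mmp15 and Timp2 were higher and Mmp3, Timp3 and Timp4 were lower than in FVB, while Mmp9, Mmp14, Mmp23 and Timp1 did not pass the threshold. Called higher were 12.2% of all tested genes, and called lower were also 12.2%. The median log2 fold change was 0.11 for the MMP genes and -0.34 for the TIMP genes, compared with -0.0023 for all tested genes. Timp4 alone changed by at least 1 on the log2 scale, as did 1.58% of all tested genes. In TMM-normalized levels, libraries of both groups were fully separate for 8 of the 10 genes and for 37.1% of all tested genes.

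**Figure D1:**
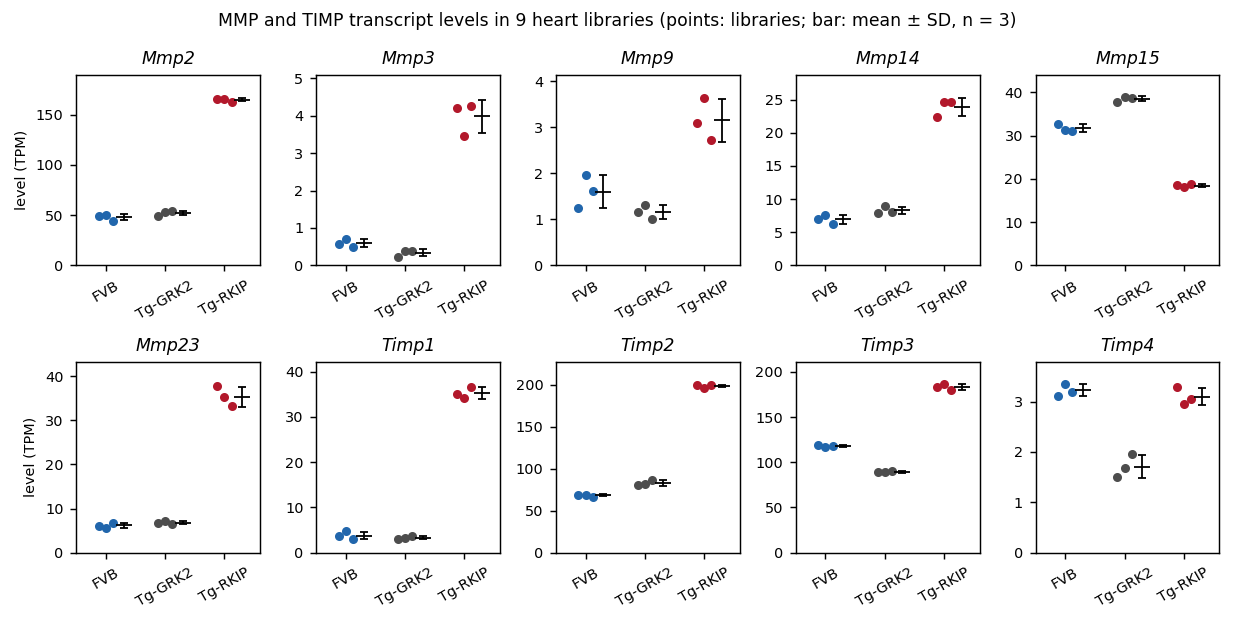
Transcript level in TPM (vertical axes, linear, from 0) of the 10 genes in FVB, Tg-GRK2 and Tg-RKIP hearts. Points are libraries, and bars are the mean ± SD of n = 3. For Timp1 the Tg-RKIP libraries sit between 34.1 and 36.7 TPM and all others between 3.08 and 4.70 TPM, for Mmp15 the Tg-RKIP libraries are lowest, and for Timp4 Tg-GRK2-labelled libraries are lowest.

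In FVB hearts, Timp3 was the most abundant transcript of the 10, followed by Timp2 and Mmp2. The mean levels were 118 ± 1.20, 68.4 ± 1.30 and 48.0 ± 3.00 TPM (SD, n = 3 each). Mmp15 followed with 31.8 ± 0.908 TPM (SD, n = 3). Below these lay Mmp14 and Mmp23, whose libraries overlapped, then Timp1 and Timp4, whose libraries also overlapped, then Mmp9 and, lowest, Mmp3 with 0.591 ± 0.102 TPM (SD, n = 3). In Tg-GRK2-labelled libraries the order was the same, and no neighbours overlapped. In Tg-RKIP hearts Timp2 was first with 199 ± 1.52 TPM, ahead of Timp3 with 183 ± 3.67 TPM and Mmp2 with 165 ± 1.71 TPM (SD, n = 3 each). Mmp23 and Timp1 came next and overlapped, with mean levels of 35.4 and 35.2 TPM, ahead of Mmp14 and Mmp15. Mmp3, Mmp9 and Timp4 were at the bottom of the order, with overlapping libraries between neighbours.

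Mmp2 encodes gelatinase A, a constitutively made protease that cuts denatured collagen and basement membrane collagen. The gene lies on chromosome 8 from 93553919 to 93580048 (plus strand, GRCm39 as deposited) and has 4 transcripts. Its level was 166, 166 and 163 TPM in the Tg-RKIP libraries, 49.6, 52.9 and 54.0 TPM in the Tg-GRK2-labelled ones, and 49.6, 49.9 and 44.5 TPM in FVB. All Tg-RKIP libraries were thus far above the rest, while the other groups overlapped in TPM. The log2 fold change against FVB was 1.16 in Tg-RKIP (SE 0.024, edgeR adjusted p = 8.66e-21), which is 2.24-fold. It was 0.21 in Tg-GRK2-labelled libraries (SE 0.026, edgeR adjusted p = 3.00e-06), a difference that did not pass the threshold on log2(TPM + 0.1), where the log2 fold change was 0.12 (limma adjusted p = 0.104).

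The transcripts of Mmp2 did not keep the same make-up. A protein-coding transcript of 674 bases carried 10.4% ± 0.727 of the Mmp2 reads in Tg-RKIP, 4.24% ± 0.847 in Tg-GRK2-labelled libraries and 6.06% ± 1.34 in FVB (SD, n = 3 each). Because TPM divides by length, this transcript made up 31.5%, 16.1% and 21.0% of the summed TPM of Mmp2 in these groups. The protein-coding transcript of 3078 bases carried 83.7% of the reads in Tg-RKIP and 89.7% in FVB. The ratio of the mean TPM of Tg-RKIP to that of FVB was 3.44, larger than the 2.24-fold difference in TMM-normalized counts. These 2 values differ in the scaling between libraries as well as in the division by length. In counts scaled to library size only, the log2 fold change was 1.54, compared with 1.16 with TMM and 1.78 on log2(TPM + 0.1). How reads of 50 bases that fit several transcripts were divided is not given in the sources used here.

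Mmp9 encodes gelatinase B, an inducible gelatinase known from neutrophils and macrophages. It lies on chromosome 2 from 164782700 to 164797770 (plus strand) and has 4 transcripts, 3 of which had reads. The Tg-RKIP libraries had 3.08, 3.64 and 2.73 TPM, the Tg-GRK2-labelled ones had 1.16, 1.31 and 1.014 TPM, and FVB had 1.24, 1.96 and 1.61 TPM. Read counts were low, at 138 to 197, 69 to 76 and 68 to 98 per library. Mmp9 was higher in all Tg-RKIP libraries than in any FVB library, with a log2 fold change of 0.51 (SE 0.13, edgeR adjusted p = 0.00108). On the most abundant transcript alone the log2 fold change was 0.41 and missed the threshold (edgeR adjusted p = 0.0556), and a test against a 1.5-fold change made no call. Tg-GRK2-labelled libraries overlapped with FVB (log2 fold change -0.36, SE 0.14, edgeR adjusted p = 0.0818), and without FVB replicate 1 the difference passed the threshold (-0.48, edgeR adjusted p = 0.0250).

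Of 7 neutrophil markers, 3 passed the filter, and all 3 (S100a8, S100a9 and Csf3r) were higher in Tg-RKIP than in FVB. The summed level of the list was 8.80 to 9.66 TPM in Tg-RKIP, 2.13 to 2.84 TPM in Tg-GRK2-labelled libraries and 0.564 to 1.28 TPM in FVB. Ly6g, Mpo and Elane were at 0 in every FVB library and in every library labelled Tg-GRK2, and had at most 3 reads in a Tg-RKIP library. Of 6 macrophage markers, 5 rose in Tg-RKIP and Lyve1 did not pass the threshold, with summed levels of 279 to 289 TPM in Tg-RKIP, 123 to 130 TPM in Tg-GRK2-labelled libraries and 117 to 119 TPM in FVB. The part of these cells in the Mmp9 result was not tested.

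Mmp3 encodes stromelysin-1, which cuts proteoglycans, laminin and fibronectin and can activate other MMP zymogens. The gene is on chromosome 9 from 7445822 to 7455975 (plus strand) and has 1 transcript. In reads, Mmp3 had 127, 135 and 127 in Tg-RKIP, 8, 13 and 15 in Tg-GRK2-labelled libraries, and 19, 26 and 16 in FVB. In TPM these were 4.21, 3.46 and 4.26, then 0.234, 0.396 and 0.389, then 0.581, 0.698 and 0.495. None of the groups overlapped. Against FVB the log2 fold change was 2.31 in Tg-RKIP (SE 0.19, edgeR adjusted p = 5.42e-10), or 4.95-fold, and leaving out single libraries gave 2.20 to 2.45. After Timp1, Mmp3 was the gene of the 10 with the largest change. In Tg-GRK2-labelled libraries the log2 fold change was -0.85 (SE 0.29, edgeR adjusted p = 0.0387). That call rests on few reads, and it was lost with DESeq2 (adjusted p = 0.0891), in a fit of only the groups compared (edgeR adjusted p = 0.0598), and without FVB replicate 1 (0.0670), FVB replicate 2 (0.158) or Tg-GRK2 replicate 1 (0.157), 2 (0.0532) or 3 (0.0507).

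Mmp14 encodes MT1-MMP, a collagenase anchored in the cell membrane that activates the zymogen of Mmp2. It lies on chromosome 14 from 54669069 to 54682821 (plus strand) and has 7 transcripts. Its level was 22.4, 24.6 and 24.7 TPM in Tg-RKIP, 7.91, 8.95 and 8.01 TPM in Tg-GRK2-labelled libraries, and 7.05, 7.57 and 6.24 TPM in FVB. The Tg-RKIP libraries stood apart, with a log2 fold change of 1.36 against FVB (SE 0.055, edgeR adjusted p = 1.43e-15). The difference between Tg-GRK2-labelled libraries and FVB was 0.098 on the log2 scale (SE 0.066) and did not pass the threshold (edgeR adjusted p = 0.320), although the groups did not overlap.

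Mmp15 encodes MT2-MMP, a membrane-type MMP like Mmp14, and it moved the other way. The gene lies on chromosome 8 from 96078896 to 96101708 (plus strand) and has 2 transcripts. Tg-RKIP libraries had 18.5, 18.1 and 18.8 TPM, the Tg-GRK2-labelled ones had 37.9, 39.0 and 38.7 TPM, and FVB had 32.8, 31.3 and 31.2 TPM. The 3 groups were fully separate, with Tg-RKIP lowest and Tg-GRK2 highest. Mmp15 fell by 1.20 on the log2 scale in Tg-RKIP against FVB (SE 0.027, edgeR adjusted p = 4.40e-20), a 2.29-fold decrease, and its log2 fold change stayed negative under each scaling, at -0.75 where it was smallest in size. In Tg-GRK2-labelled libraries the log2 fold change was 0.23 (SE 0.025, edgeR adjusted p = 5.47e-07). Its direction was thus opposite to that of Mmp14 in Tg-RKIP. Of 6 endothelial markers 3 rose and 3 fell in Tg-RKIP, and all 6 cardiomyocyte markers fell in TMM-normalized counts (median log2 fold change -0.67), of which 2 were called higher with scaling to library size only. The part of either cell type in the Mmp15 result was not tested.

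Mmp23 encodes an unusual MMP that is held in the membrane by its amino-terminal part and lacks the hemopexin domain of most other MMPs. The gene is on chromosome 4 from 155735112 to 155737841 (minus strand) and has 4 transcripts. The level was 37.7, 35.2 and 33.2 TPM in Tg-RKIP, 6.75, 7.19 and 6.58 TPM in Tg-GRK2-labelled libraries, and 6.12, 5.60 and 6.79 TPM in FVB. In TPM only the Tg-RKIP libraries stood apart from FVB, with a log2 fold change of 2.09 (SE 0.066, edgeR adjusted p = 1.58e-17), or 4.26-fold. In Tg-GRK2-labelled libraries the log2 fold change was 0.11 (SE 0.087, edgeR adjusted p = 0.402).

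Timp1 encodes an inducible secreted inhibitor that binds many MMPs, with Mmp9 among the best known. It lies on chromosome X from 20736405 to 20740974 (plus strand) and has 2 transcripts. Its level was 35.0015, 34.1 and 36.7 TPM in Tg-RKIP, 3.10, 3.29 and 3.70 TPM in Tg-GRK2-labelled libraries, and 3.64, 4.70 and 3.08 TPM in FVB. In reads, the Tg-RKIP libraries had 488, 615 and 506, the Tg-GRK2-labelled ones had 49, 50 and 66, and FVB had 55, 81 and 46. Timp1 had the largest change of the 10 genes in Tg-RKIP, with a log2 fold change of 2.78 (SE 0.10, edgeR adjusted p = 4.11e-16), or 6.85-fold, and leaving out single libraries gave 2.64 to 2.97. Tg-GRK2-labelled libraries overlapped with FVB (log2 fold change -0.24, SE 0.16, edgeR adjusted p = 0.322).

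Timp2 encodes an inhibitor that also bridges MT1-MMP and the zymogen of Mmp2 at the cell surface. The gene is on chromosome 11 from 118191895 to 118246566 (minus strand) and has 2 transcripts. The level was 200, 197 and 199 TPM in Tg-RKIP, 80.8, 82.2 and 86.6 TPM in Tg-GRK2-labelled libraries, and 69.1, 69.2 and 66.9 TPM in FVB. The 3 groups did not overlap. Timp2 rose by 1.12 on the log2 scale in Tg-RKIP (SE 0.020, edgeR adjusted p = 4.60e-22) and by 0.15 in Tg-GRK2-labelled libraries (SE 0.020, edgeR adjusted p = 6.88e-06). Mmp2, Mmp14 and Timp2, which act together in the activation of gelatinase A, had log2 fold changes of 1.16, 1.36 and 1.12 in Tg-RKIP.

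Timp3 encodes an inhibitor that stays bound to the matrix and also blocks ADAM17 and several ADAMTS proteases. It lies on chromosome 10 from 86136236 to 86185370 (plus strand) and has 4 transcripts. Its level was 183, 187 and 179 TPM in Tg-RKIP, 89.1, 88.8 and 90.1 TPM in Tg-GRK2-labelled libraries, and 119, 117 and 118 TPM in FVB. All groups were separate, and the transgenic groups lay on opposite sides of FVB. The log2 fold change against FVB was 0.22 in Tg-RKIP (SE 0.019, edgeR adjusted p = 6.32e-10) and -0.45 in Tg-GRK2-labelled libraries (SE 0.019, edgeR adjusted p = 1.01e-13). A test against a 1.5-fold change called neither.

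Timp4 encodes an inhibitor known for its expression in the heart, although it was the TIMP with the lowest mean level in each group, with libraries that overlapped with those of Timp1 in FVB. The gene is on chromosome 6 from 115218853 to 115229166 (minus strand) and has 2 transcripts. Its level was 3.28, 2.96 and 3.04 TPM in Tg-RKIP, 1.49, 1.67 and 1.95 TPM in Tg-GRK2-labelled libraries, and 3.12, 3.35 and 3.19 TPM in FVB. In TPM Tg-GRK2-labelled libraries were lowest, and Tg-RKIP overlapped with FVB. The log2 fold change against FVB was -1.08 in Tg-GRK2-labelled libraries (SE 0.081, edgeR adjusted p = 1.45e-09), or 2.12-fold lower, and leaving out single libraries gave -1.14 to -1.04. In Tg-RKIP it was -0.39 (SE 0.071, edgeR adjusted p = 4.64e-05) with TMM, and this call was lost with scaling to library size only (-0.016, edgeR adjusted p = 0.849) and on log2(TPM + 0.1) (-0.056, limma adjusted p = 0.644). Timp4 was the only one of the 10 genes whose call in Tg-RKIP depended on the scaling.

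**Figure D2:**
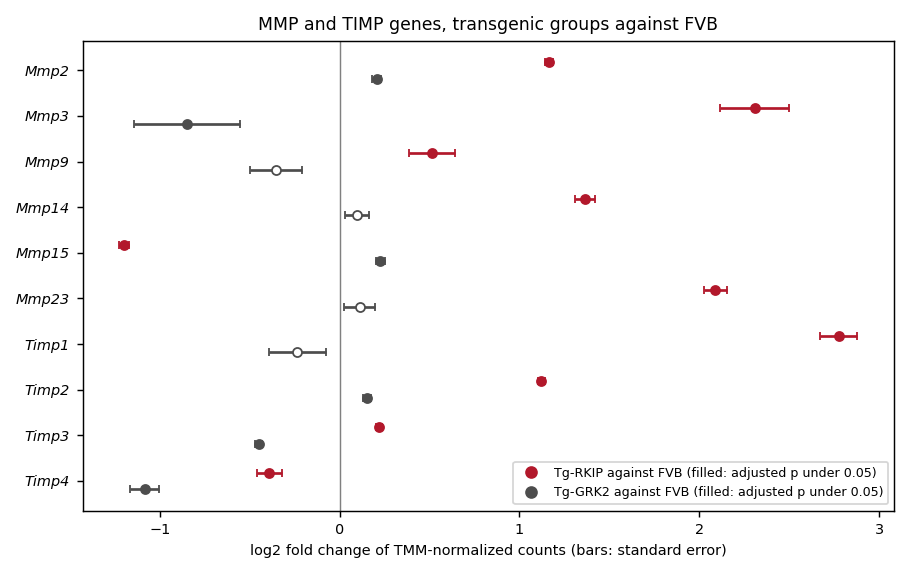
Log2 fold change of TMM-normalized counts against FVB (horizontal axis) for each of the 10 genes in Tg-RKIP (red) and in Tg-GRK2-labelled libraries (grey), with standard errors. Filled points passed an edgeR adjusted p of 0.05. In Tg-RKIP, Timp1 at 2.78 lies farthest to the right and Mmp15 at -1.20 farthest to the left. In Tg-GRK2-labelled libraries, Timp4 at -1.08 is farthest from 0.

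For Tg-RKIP against FVB, scaling to library size only and log2(TPM + 0.1) gave higher log2 fold changes than TMM for each of the 10 genes. The median over the genes tested under each was higher as well. In this comparison Mmp2 had a log2 fold change of 1.16 with TMM and 1.78 on log2(TPM + 0.1), Timp3 of 0.22 and 0.64, and Mmp9 of 0.51 and 0.94. No gene of the 10 changed its sign under any alternative run, in any of the 3 comparisons.

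**Figure D3:**
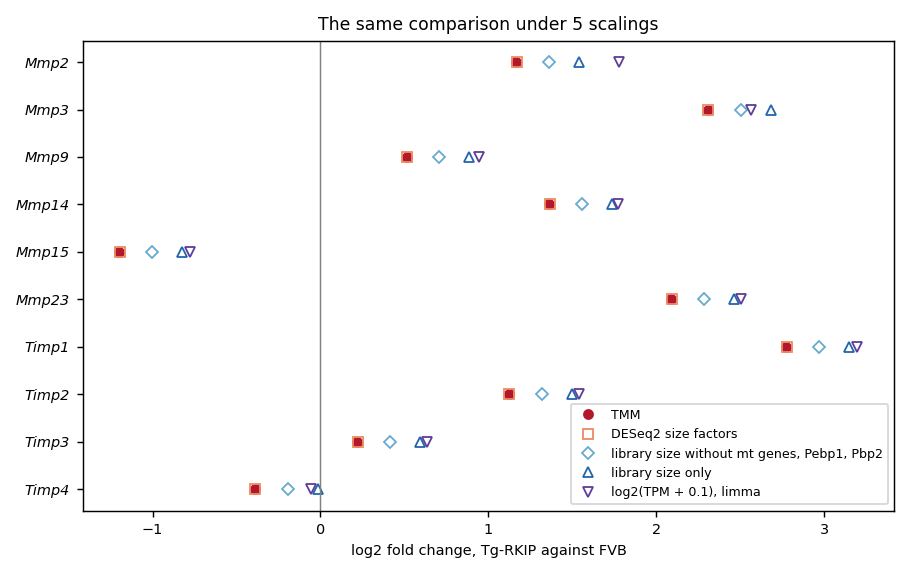
Log2 fold change of Tg-RKIP against FVB (horizontal axis) for the 10 genes under 5 scalings, with TMM, DESeq2 size factors, library size without mitochondrially encoded genes, Pebp1 and Pbp2, library size only, and limma on log2(TPM + 0.1). The last 2 lie to the right of TMM for each gene, and those of Timp4, at -0.016 and -0.056, come closest to 0.

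The transgenic groups were also compared with each other directly. Relative to Tg-GRK2-labelled libraries, 9 of the 10 genes were higher in Tg-RKIP hearts and 1, Mmp15, was lower. Of all tested genes, 37.9% were higher, 36.6% lower and 16.8% called and changed by at least 1 on the log2 scale, which 5 of the 10 genes were. None of the 10 genes overlapped between these groups, as was also so for 76.4% of all tested genes. The log2 fold change was 3.16 for Mmp3 (SE 0.21, edgeR adjusted p = 1.38e-11) and 3.01 for Timp1 (SE 0.11, edgeR adjusted p = 1.16e-16). For Mmp15 it was -1.42 (SE 0.027, edgeR adjusted p = 1.41e-21). Timp3 and Timp4 were higher in Tg-RKIP by 0.67 and 0.69 on the log2 scale (edgeR adjusted p = 1.98e-18 and 1.07e-07). Timp4 was not called in this comparison by a test against a 1.5-fold change (glmTreat adjusted p = 0.114).

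Within a library, the make-up of the TIMP transcripts can be read without scaling between libraries. Timp3 made up 61.0% ± 0.768 of the summed TIMP TPM in FVB, 50.3% ± 0.845 in Tg-GRK2-labelled libraries and 43.6% ± 0.759 in Tg-RKIP (SD, n = 3 each). Timp2 made up 35.4% ± 0.333, 46.8% ± 0.614 and 47.3% ± 0.428 in the same order. The share of Timp1 was 1.97% ± 0.417 in FVB, 1.89% ± 0.125 in Tg-GRK2-labelled libraries and 8.39% ± 0.338 in Tg-RKIP. Timp4 had the smallest share, at 1.67% ± 0.0645, 0.959% ± 0.107 and 0.736% ± 0.0387. Both transgenic groups thus had less Timp3 and more Timp2 among their TIMP transcripts than FVB, and Tg-RKIP also had more Timp1. For each of these differences from FVB, the exact two-sided permutation test gave p = 0.1, the smallest p that 3 libraries against 3 allow, and 0.125 after adjustment over 15 comparisons. The share of Timp1 did not differ between Tg-GRK2-labelled libraries and FVB beyond the spread (exact permutation test, p = 0.9, adjusted 0.9), nor did that of Timp2 between the transgenic groups (exact permutation test, p = 0.4, adjusted 0.462).

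**Figure D4:**
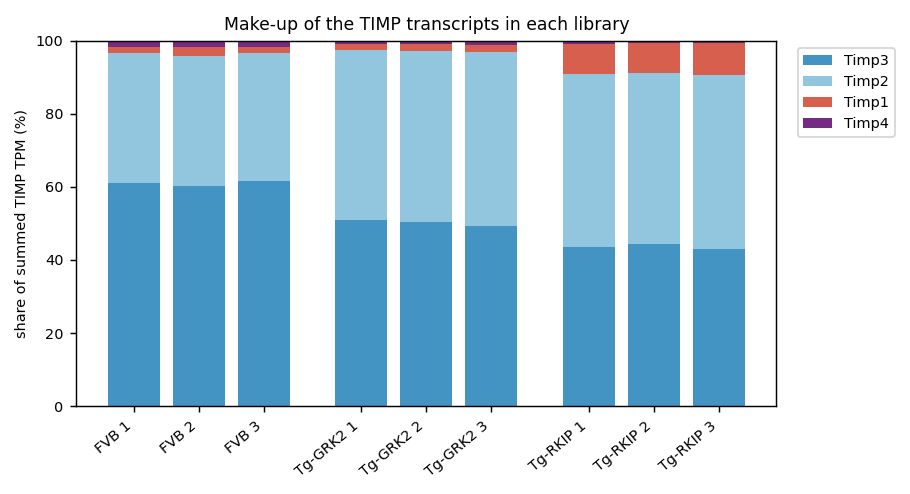
Share of each TIMP gene in the summed TPM of the 4 TIMP genes (vertical axis, percent) in each of the 9 libraries. Timp3 takes 60.1% to 61.7% in FVB and 42.9% to 44.4% in Tg-RKIP, and Timp1 takes 8.10% to 8.76% in Tg-RKIP and at most 2.43% elsewhere.

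The summed level of the 6 MMP genes was 90.8 to 97.4 TPM in FVB, 103 to 110 TPM in Tg-GRK2-labelled libraries and 247 to 252 TPM in Tg-RKIP. That of the 4 TIMP genes was 191 to 195, 174 to 182 and 418 to 421 TPM. The ratio of summed MMP to summed TIMP TPM was 0.492 ± 0.0141 in FVB, 0.604 ± 0.0166 in Tg-GRK2-labelled libraries and 0.594 ± 0.00459 in Tg-RKIP (SD, n = 3 each). It was higher in all libraries of either transgenic group than in any FVB library (exact permutation test, p = 0.1 for each, adjusted 0.125). The difference of 0.102 between Tg-RKIP and FVB depended on how transcripts were summed. With only the most abundant transcript of each gene it was -0.00662, whereas that between Tg-GRK2-labelled libraries and FVB was 0.140.

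Several TIMP genes lie inside a synapsin gene on the opposite strand, and whether reads were counted by strand is not given in the sources used here. By the deposited coordinates, Timp1 lies in Syn1, Timp3 in Syn3 and Timp4 in Syn2, with 0, 1733 and 90 shared exon bases. Syn3 had 14 to 97 reads per library, whereas Timp3 had 7639 to 19064. Syn2 had more reads than Timp4, with 835, 1031 and 760 in Tg-RKIP, 433, 447 and 434 in Tg-GRK2-labelled libraries, and 324, 347 and 307 in FVB. Syn2 had a log2 fold change of 1.05 in Tg-RKIP and 0.33 in Tg-GRK2-labelled libraries (edgeR adjusted p = 5.25e-13 and 0.00072), while those of Timp4 were negative. On the most abundant transcript the Syn2 value in Tg-GRK2-labelled libraries was 0.16 and did not pass the threshold (edgeR adjusted p = 0.442). Syn3 rose in Tg-RKIP (1.42, edgeR adjusted p = 9.91e-06), and Syn1 did not pass the threshold in either comparison. The part of reads from the opposite strand in the Timp3 and Timp4 results was not tested.

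The genes whose pattern over the 9 libraries was most like that of Timp1 were Chmp3, Park7 and Cttn, each with a Pearson correlation of 0.998 in log2 TMM-normalized levels. Their log2 fold changes in Tg-RKIP against FVB were 0.34, 0.46 and 0.79, so the likeness is one of pattern and not of size. For Timp4 the most similar genes were Ndel1 (0.992), Irf1 (0.989), an interferon-induced transcription factor, and Psmb9 (0.988), a subunit of the immunoproteasome. Irf1 had log2 fold changes of -0.19 in Tg-RKIP and -0.51 in Tg-GRK2-labelled libraries. The 9 libraries share the 3 group means, so these values describe the groups and carry no test.

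Counts in this list and in those below are to be read beside all tested genes. Against FVB, 36.8% of those were called higher and 37.1% lower in Tg-RKIP, and 12.2% in each direction in Tg-GRK2-labelled libraries. Among 17 other MMP genes, 8 passed the filter on low counts. Of these, 6 rose in Tg-RKIP against FVB, none fell, and Mmp16 and Mmp27 did not pass the threshold, with a median log2 fold change of 0.62. Mmp12, the macrophage elastase, averaged 0.688 ± 0.158 TPM in FVB hearts and 2.72 ± 0.498 TPM under the RKIP transgene (SD, n = 3 each), with a log2 fold change of 1.76 (SE 0.29, edgeR adjusted p = 1.10e-05). Mmp13, an interstitial collagenase also made by cartilage and bone cells, had a log2 fold change of 1.34 and Mmp19 of 1.08 (edgeR adjusted p = 1.12e-07 and 1.85e-09). In Tg-GRK2-labelled libraries, 1 of the 8 genes rose, Mmp11, with a log2 fold change of 0.33 (edgeR adjusted p = 0.0343). No gene of the list fell there, and the Mmp11 call was lost with DESeq2 (adjusted p = 0.0681) and, in edgeR, without FVB replicate 3 (0.178) or Tg-GRK2 replicate 3 (0.228). Of the 9 genes that were not tested, Mmp1a, Mmp1b, Mmp7, Mmp10 and Mmp20 had no read in any library, and Mmp8, the neutrophil collagenase, had at most 7 reads. Of 8 cartilage markers 6 were tested, and 5 of them rose in Tg-RKIP, with a summed level of 337 to 344 TPM there, 14.1 to 15.5 TPM in Tg-GRK2-labelled libraries and 15.4 to 15.6 TPM in FVB. Col2a1, the collagen gene that defines cartilage, had 2563 to 3291 reads per Tg-RKIP library and at most 3 in any other. The part of cartilage in the results for Mmp13, for the MMP and TIMP genes above and for the lists below was not tested.

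The ADAMTS proteases, which cut proteoglycans and process procollagens, were tested for 16 of 19 genes. Tg-RKIP hearts had 7 of them higher and 6 lower (median log2 fold change 0.051), beside 36.8% higher and 37.1% lower among all tested genes, so these counts lie near the background. Adamts20 rose by 3.23, Adamts8 by 2.58 and Adamts4, an aggrecanase, by 2.46 on the log2 scale (edgeR adjusted p at most 1.01e-05). In FVB, Adamts20 had only 15, 17 and 12 reads and Adamts4 only 7, 3 and 4. The fold of Adamts4 is therefore not precise (SE 0.40). Adamts3, a procollagen processing enzyme, fell by 2.04, Adamts7 fell by 1.84 and Adamts9 fell by 1.00 (edgeR adjusted p at most 2.25e-09). Mean levels of Adamts3 were 1.62 TPM in FVB and 0.450 TPM in Tg-RKIP. The more abundant Adamts2 rose by 1.70 in Tg-RKIP (edgeR adjusted p = 4.67e-21), from 5.79 to 23.9 TPM. On the most abundant transcript Adamts9 was -0.22 (edgeR adjusted p = 0.374) and Adamts3 missed the threshold (edgeR adjusted p = 0.0592). In Tg-GRK2-labelled libraries, 4 rose and 1 fell. Adamts8 had a log2 fold change of 0.91, Adamts12 of 0.64, Adamts2 of 0.48 and Adamts15 of -0.24 there (edgeR adjusted p at most 0.00753). The Adamts15 call was lost with DESeq2 (adjusted p = 0.0585), on log2(TPM + 0.1) (limma adjusted p = 0.123), on log2(TPM + 1) (0.131) and on the most abundant transcript (edgeR adjusted p = 0.0646).

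Of 10 genes of the ADAM family, some of which encode proteases that shed proteins from the cell surface, all were tested. In Tg-RKIP 5 rose and 3 fell (median log2 fold change 0.088), beside 36.8% higher and 37.1% lower among all tested genes. Adam8 had a log2 fold change of 2.02, Adam12 of 1.59 and Adam33 of 1.07 there (edgeR adjusted p at most 1.49e-06). Adam22 fell by 0.58 (edgeR adjusted p = 9.82e-06), a call that was lost on log2(TPM + 0.1) (-0.21, limma adjusted p = 0.233), on log2(TPM + 1) (-0.12, 0.224) and on the most abundant transcript (edgeR adjusted p = 0.291). Adam17, the protease blocked by Timp3, had a log2 fold change of -0.39 with TMM (edgeR adjusted p = 1.50e-09) and 0.086 on log2(TPM + 0.1), and Adam19 had -0.22 with TMM and 0.15 with scaling to library size only. In Tg-GRK2-labelled libraries, 3 rose, namely Adam19 (0.52), Adam17 (0.15) and Adam9 (0.11), and none fell. On the most abundant transcript the calls of Adam17 (0.18, edgeR adjusted p = 0.580) and Adam9 (0.048, edgeR adjusted p = 0.799) were lost.

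Activators and other inhibitors of the system were tested for 11 of 13 genes. In Tg-RKIP 8 rose and 2 fell (median log2 fold change 0.47), beside 36.8% higher and 37.1% lower among all tested genes. Serpine2, an inhibitor of thrombin and plasminogen activators, rose by 1.34, and Reck, a membrane-anchored inhibitor of MMPs, rose by 1.00 on the log2 scale (edgeR adjusted p at most 2.54e-14). Furin, a zymogen convertase that acts on membrane-anchored MMPs, had -0.22 with TMM and 0.16 with scaling to library size only, and Bsg, an inducer of MMPs, had -0.060 and 0.32. In Tg-GRK2-labelled libraries, Lrp1 (0.38), Plau (0.27) and Pcsk6 (0.23) rose, while Bsg fell by 0.090 on the log2 scale (edgeR adjusted p at most 0.0225). For Lrp1, an endocytic receptor that clears MMPs and TIMPs, the most abundant transcript alone gave -0.050 (edgeR adjusted p = 0.858). The Plau call was lost with DESeq2 (adjusted p = 0.0575), on the most abundant transcript (edgeR adjusted p = 0.116), and without FVB replicate 1 (0.0713), FVB replicate 2 (0.145) or Tg-GRK2 replicate 2 (0.0936). The Bsg call was lost on log2(TPM + 0.1) (limma adjusted p = 0.121) and on the most abundant transcript (edgeR adjusted p = 0.0558).

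All 16 matrix substrates were tested. In Tg-RKIP 12 were higher and 4 lower than in FVB, and their median log2 fold change was 0.86. Eln, which encodes elastin, had the largest increase, from 9.27 ± 0.589 to 132 ± 4.22 TPM (SD, n = 3 each), which was 3.38 on the log2 scale (SE 0.041, edgeR adjusted p = 8.73e-25). Tnc followed with 3.29 and Col1a1 with 2.55 (edgeR adjusted p at most 1.66e-16). The 4 genes called lower encode basement membrane components, but the basement membrane collagen genes Col4a1 (0.59) and Col4a2 (0.58) were called higher (edgeR adjusted p at most 8.33e-17). The 3 genes with the largest decrease, Hspg2 (-0.35), Lamb1 (-0.30) and Nid1 (-0.16), were called higher instead on log2(TPM + 0.1). With scaling to library size only Lamb1 and Nid1 were called higher, and Hspg2, at 0.030, did not pass the threshold (edgeR adjusted p = 0.181). In Tg-GRK2-labelled libraries, 14 of the 16 substrates rose and none fell, with a median of 0.42, and Col3a1 (0.76), Col5a1 (0.61) and Col1a1 (0.61) rose most (edgeR adjusted p at most 1.83e-10). The Col5a1 call was lost on the most abundant transcript (edgeR adjusted p = 0.0917). Of 6 fibroblast markers, which share Col1a1 and Dcn with the substrates, all 6 rose in Tg-RKIP and 4 in Tg-GRK2-labelled libraries, and their summed level was 2044 to 2052, 965 to 979 and 891 to 916 TPM in Tg-RKIP, Tg-GRK2 and FVB. The part of fibroblasts in the results for the 10 genes was not tested.

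Cytokines that can induce some, but not all, MMPs and the AP-1 and ETS factors that act on MMP promoters were tested for 13 of 14 genes. In Tg-RKIP 8 rose and 4 fell (median log2 fold change 0.63), beside 36.8% higher and 37.1% lower among all tested genes. Tgfb3 and Tgfb2 rose by 1.63 and 1.51 on the log2 scale (edgeR adjusted p at most 2.21e-17). Il6 had 18, 29 and 27 reads in Tg-RKIP and 3, 0 and 2 in FVB, which passed the threshold (edgeR adjusted p = 4.93e-06) at a level too low in FVB for a precise fold. Ets1 fell by 0.52 (edgeR adjusted p = 3.29e-12), whereas Fos (-0.39) and Ets2 (-0.28) were called lower with TMM. On log2(TPM + 0.1) Ets2 was higher (0.13, limma adjusted p = 0.00291) and Fos, at 0.024, did not pass the threshold (limma adjusted p = 0.844). In Tg-GRK2-labelled libraries, Junb (0.41) and Ets2 (0.19) rose and Jun fell by 0.25, with 2 genes called in each direction (edgeR adjusted p at most 0.000298 for these).

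**Figure D5:**
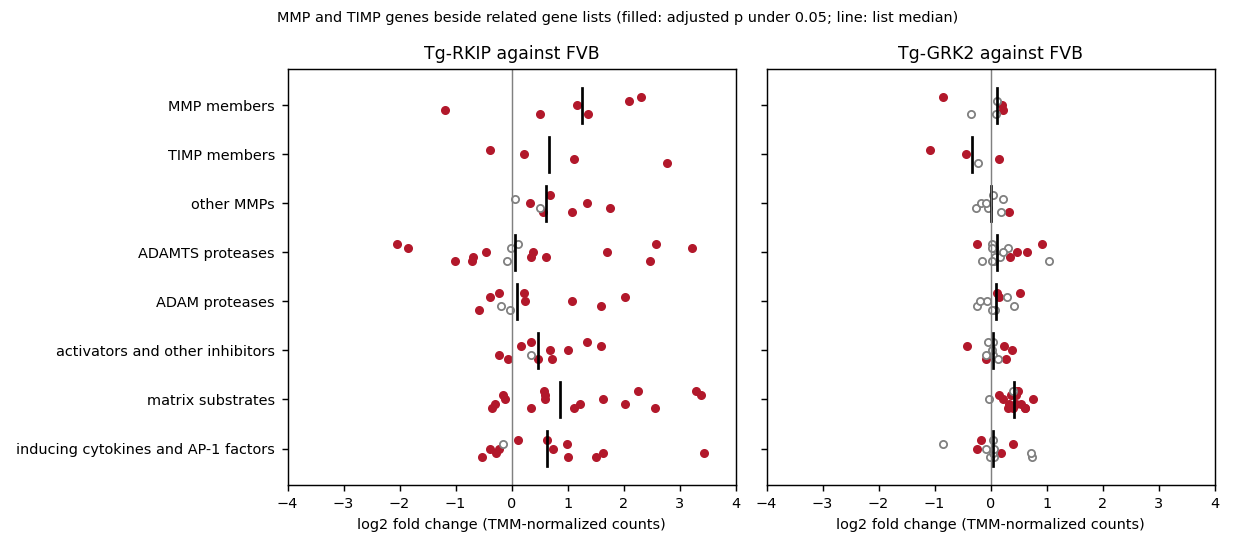
Log2 fold change of TMM-normalized counts against FVB (horizontal axes) for the tested MMP and TIMP genes and the related gene lists, in Tg-RKIP (left) and in Tg-GRK2-labelled libraries (right). Each point is a gene, filled points passed an edgeR adjusted p of 0.05, and vertical lines are list medians. In Tg-RKIP the medians of the 6 MMP genes (1.26), the 4 TIMP genes (0.67) and the matrix substrates (0.86) lie to the right of the median of all tested genes, 0.0085.

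Other cell type markers moved between the groups as well. Of 6 smooth muscle and pericyte markers, 3 rose and 3 fell in Tg-RKIP, with summed levels of 851 to 871 TPM there, 404 to 413 TPM in Tg-GRK2-labelled libraries and 430 to 450 TPM in FVB. All 6 adipocyte markers rose in Tg-RKIP and 5 of them in Tg-GRK2-labelled libraries, with 87.8 to 91.2, 25.9 to 27.7 and 9.41 to 11.4 TPM in Tg-RKIP, Tg-GRK2 and FVB. All 5 mesothelial markers rose in Tg-RKIP and 4 in Tg-GRK2-labelled libraries. The endothelial markers summed to 369 to 375 TPM in Tg-RKIP and 259 to 272 TPM in the others. Of 7 airway markers 4 were tested, and all 4 were higher in both transgenic groups, with summed levels of 87.7 to 94.2 TPM in Tg-RKIP, 190 to 199 TPM in Tg-GRK2-labelled libraries and 0.284 to 0.516 TPM in FVB, where Scgb1a1, Scgb3a2, Bpifa1 and Sftpc were at 0. The part of these tissues in the MMP and TIMP results was not tested.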

How the data were processed

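Cardiac mRNA of 9 mouse hearts was fragmented, primed with random hexamers and sequenced as single reads of 50 bases. The authors deposited read counts (whole numbers, not normalized) and TPM values for 127558 transcripts in each library. The TPM values equal those recomputed from the counts and transcript lengths to within 5.50e-06. The submitters' processing notes name the build GRCm39. The aligner, the counting program and their handling of strand and of shared reads are not given in the sources used here. Coordinates are as deposited.

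Transcript values were added up per gene name, which gave 41710 genes. Counts of all 9 libraries were fitted in R 4.3.3 with edgeR 4.0.16 (filterByExpr, TMM, glmQLFit and glmQLFTest, a mean per group), with Benjamini-Hochberg adjusted p-values over 15504 genes and a threshold of 0.05. The SE is the absolute log2 fold change divided by the square root of the F statistic. The biological coefficient of variation was 2.86%. No pair of libraries within a group was identical, and the median squared difference in counts, over 9 pairs within groups, was 1.25 to 1.53 times that of sampling noise. Libraries of a group thus differed little beyond sampling noise. The edgeR p-values rest on this small spread, whose cause was not tested. Scripts were tested on simulated data with few changed genes and no shift in mitochondrial reads between groups. That test does not bear on the choice of scaling. Shares and ratios were compared by exact two-sided permutation tests.

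The alternatives were DESeq2 1.42.0 and its size factors, library size scaling with and without mitochondrially encoded genes, Pebp1 and Pbp2, other filters, a block for the replicate number, fits of only the groups compared, each library left out, limma 3.58.1 on log2(TPM + 0.1) and log2(TPM + 1), the most abundant transcript, and glmTreat at a fold of 1.5.

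The 10 genes, the 7 lists of related genes and the 10 lists of cell type markers were chosen with earlier results of these data known. All 10 genes are named, and 1 gene that the rule picks from a related list is not reported here. From each related list, for each transgenic group against FVB, up to 3 genes per direction are named, those with the largest called change, no overlap, and 20 or more counts on average where the gene was higher. For Timp1 and Timp4 the 3 genes with the most similar pattern are named. Others named include Mmp1a, Mmp1b, Mmp7, Mmp8, Mmp10, Mmp16, Mmp20, Mmp27 and, in Tg-RKIP, Adamts2, which were chosen after their values were seen. Cell type markers named singly, such as Col2a1, S100a8, Lyve1 and Scgb1a1, were also picked outside the rule. Counting intervals are not given.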

Additional observations from a re-analysis of the deposited data

How the results depend on the processing

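No alternative reversed a sign among the 10 genes. With each library left out, 264 values kept their side of the threshold, 5 no longer passed it and 1 now passed it. Under the other alternatives 340 kept it and 20 no longer passed it. Genes called lower in Tg-RKIP than in FVB numbered 2, and 1 with glmTreat, both limma scales and library size only. For Tg-GRK2-labelled libraries against FVB, glmTreat left 0 higher and 1 lower. Among related genes, these called lower with TMM in Tg-RKIP against FVB were positive on log2(TPM + 0.1) and log2(TPM + 1), and the cause was not tested: Adam17 (0.086 and 0.081), Adam19 (0.21 and 0.18), Furin (0.21 and 0.20), Bsg (0.36 and 0.36), Hspg2 (0.92 and 0.91), Lamb1 (0.12 and 0.12), Nid1 (0.26 and 0.25), Fos (0.024 and 0.018) and Ets2 (0.13 and 0.12). With library size only, Adam19 gave 0.15, Furin 0.16, Bsg 0.32, Hspg2 0.030, Lamb1 0.075, Nid1 0.21 and Ets2 0.090. Without mitochondrially encoded genes, Pebp1 and Pbp2 in the library size, Bsg gave 0.14 and Nid1 0.034. On the most abundant transcript, Hspg2 gave 1.16, and Lrp1 in Tg-GRK2-labelled libraries gave -0.050.

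Of the counts in lists, 169 stayed within 1.5 times and 35 did not. For Tg-RKIP against FVB, on log2(TPM + 0.1), 3 ADAMTS genes were lower instead of 6, 0 ADAM genes instead of 3 (library size only gave 1), 0 activators instead of 2 and 0 substrates instead of 4 (library size only gave 0 for both), 1 inducer instead of 4 (1), 1 endothelial and 1 smooth muscle marker instead of 3 each, while 1 synapsin gene was higher instead of 2 and 2 cardiomyocyte markers instead of 0 (2). For Tg-GRK2-labelled libraries against FVB on this scale, 0 other MMP genes were higher instead of 1 and 2 endothelial markers instead of 1 (library size only gave 2), and lower were 0 ADAMTS genes instead of 1, 1 activator and 1 inducer instead of 2 each, 1 cardiomyocyte and 1 smooth muscle marker instead of 4 each, 0 endothelial markers instead of 2 (1) and 1 cartilage marker instead of 0. Between the transgenic groups, lower were 2 ADAM genes instead of 4, 0 activators instead of 1 (0), 1 substrate instead of 4 (2) and 1 smooth muscle marker instead of 3 (1), and higher were 1 synapsin gene instead of 2 and 2 cardiomyocyte markers instead of 0 (2).

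Replicate numbers do not pair the libraries: same-numbered libraries had correlations of -0.0430 to 0.0447 in their deviations from the group means over 9 pairs. With a replicate block, Mmp3 in Tg-GRK2-labelled libraries was -0.85 and missed the threshold (edgeR adjusted p = 0.0520). No other call of the 10 genes changed under the block. The Timp1 share of summed TIMP TPM, Tg-GRK2-labelled libraries minus FVB, was -0.25 to 0.15 percentage points with a library left out, and positive without FVB replicate 2. On the most abundant transcript, the MMP to TIMP ratio of Tg-RKIP minus FVB was -0.00662.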
